A study of Homo sapiens with 48 samples.

Results

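PSN1 TalaR-M cells, which had acquired resistance to Talazoparib and were kept in the drug, were compared with the parental cells they came from by RNAseq. PSN1 is a pancreatic ductal adenocarcinoma (PDAC) line that is proficient for BRCA1 and BRCA2 and deficient for SMAD4. The comparison rested on 6 of the 48 samples of the series, 3 parental and 3 TalaR-M libraries, and on the 12370 of 20241 genes of the deposited table that stood above 0 in at least 3 of these 6 libraries. Parental cells carried the genotype label WT and received no treatment (labelled day 0). TalaR-M cells were grown in 50 nM Talazoparib and labelled 4 months, after selection in gradually increasing concentrations of the drug. A further 3 libraries came from TalaR-DF cells, resistant cells grown without drug for 4 weeks, and their values are given where they place a gene. All cells were grown in RPMI medium with fetal bovine serum. TalaR-M cells came from selection of 1 cell line, and whether they were cloned is not given in the sources used here. Presence of the drug, selection and months in culture cannot be told apart between these groups. The samples are described as triplicates without mention of separate cultures or selections, so the p-values measure only the spread between these libraries, which may be technical.

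Talazoparib inhibits PARP1 and PARP2, enzymes that bind DNA breaks and mark proteins around them with chains of poly(ADP-ribose), and it also traps these enzymes on DNA. Cells meet the trapped enzyme at replication forks and depend on homologous recombination to pass it. Known routes to resistance include restored recombination, altered fork protection, loss of PARG or of the trapped enzyme, and export of the drug by efflux pumps of the ABC family.

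The values are on the log2 scale of CPM, the reads of a gene scaled to the size of its library, and the authors set whatever lay under 0 to 0. At 0 a gene may thus have had anything up to 1 CPM, and folds against a group with any library at 0 are written as at least the value given. In the deposited data 7278 genes were at 0 in all 6 libraries and were not tested. A set of 226 genes entered the test through 3 TalaR-M values alone and 267 through 3 parental values alone, so that these had to differ between the groups and their number supports nothing. Since CPM values do not correct for length, levels are compared between libraries and not between genes.

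TalaR-M replicate 2 stood apart from the other libraries before any comparison was made. Among 10512 genes whose mean exceeded 2 log2 CPM, its Pearson correlation across genes was 0.78 with replicate 1 and 0.78 with replicate 3, against 0.994 between replicates 1 and 3 and at least 0.997 between parental libraries. A difference of more than 2-fold separated it from the average of replicates 1 and 3 at 4858 of these genes, and replicates 1 and 3 from each other at 11. Its values followed transcript length. Among 10 equal groups of genes by transcript length, its median difference from the parental mean was 1.34 on the log2 scale in the group with the shortest transcripts (median 986.5 bases) and -1.39 in that with the longest (median 9643 bases). TalaR-M replicates 1 and 3 stayed between -0.07 and 0.09 in every group, as the plot by transcript length shows. Replicate 2 was also the shallowest of the 9 libraries, with 8387755 reads on genes above 1 CPM against 12213605 to 14973847 in the others. Every comparison was therefore made with all 3 TalaR-M libraries and again without replicate 2. A gene is said to have risen or fallen only where it was called in the same direction in both fits, at a Benjamini-Hochberg adjusted p under 0.05 from limma and at least a 2-fold change. Fold changes are given with all 3 libraries first.

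**Figure D1:**
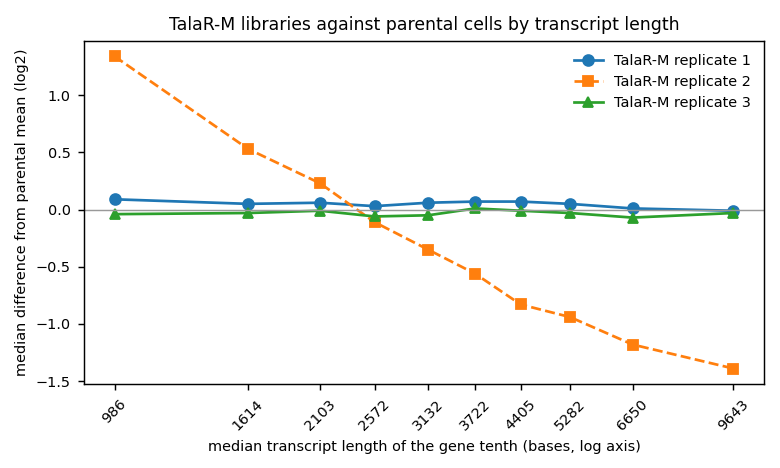
Median difference of each TalaR-M library from the mean of the 3 parental libraries (log2, vertical axis) for 10 groups of genes ordered by transcript length (bases, log axis). The dashed line of TalaR-M replicate 2 runs from 1.34 down to -1.39, while replicates 1 and 3 stay close to 0.

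The label of the cells was checked against markers. Of 13 ductal markers 11 were measured and 2 were at 0 in all libraries, among them CDH1, which encodes E-cadherin. KRT7, KRT8 and KRT18 were expressed in every library (KRT7 at 7.45 to 7.48 in parental cells), so a ductal keratin pattern was present while E-cadherin transcripts were not detected. The summed level of the list was 1408 to 1473 CPM in parental cells and 1894 to 5907 CPM in TalaR-M cells, the highest in replicate 2. Acinar markers were at 0 for 10 of 14 genes and endocrine markers for 6 of 10, including INS, GCG and SST. Of 12 fibroblast markers FAP, ACTA2 and THY1 were at 0 and the other 9 were measured. Of these COL1A1 and DCN rose, and COL1A2, LUM, PDGFRB and PDGFRA fell. The parental cells thus expressed most of this list as well. The summed level of the list was 2015 to 2101 CPM in parental and 1265 to 3581 CPM in TalaR-M cells. Of 11 endothelial markers 4 were at 0, among them VWF, while KDR and PECAM1 were expressed and fell. The summed endothelial level was 51.2 to 55.0 CPM in parental and 31.5 to 115 CPM in TalaR-M cells. All 12 erythroid markers were at 0 in the 6 libraries.

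The change between TalaR-M and parental cells was broad and ran in both directions. In both fits 1341 of 12370 genes were called (10.8%), 578 higher (4.67%) and 763 lower (6.17%) in TalaR-M cells. With all 3 libraries 1660 genes were called (13.4%), 693 higher (5.6%) and 967 lower (7.82%). Without replicate 2, 1715 were called (13.9%), 833 higher (6.73%) and 882 lower (7.13%). Replicate 2 thus decided 319 of the calls made with it, a further 374 were made only without it, and 0 genes were called in opposite directions. The 3 TalaR-M values lay outside the range of the 3 parental values for 50.2% of all genes tested. The median log2 fold change over all genes was -0.10, and 0.01 without replicate 2. Rescaling the libraries by their median ratio also moved it to 0.01, and small class medians are to be read against this shift.

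**Figure D2:**
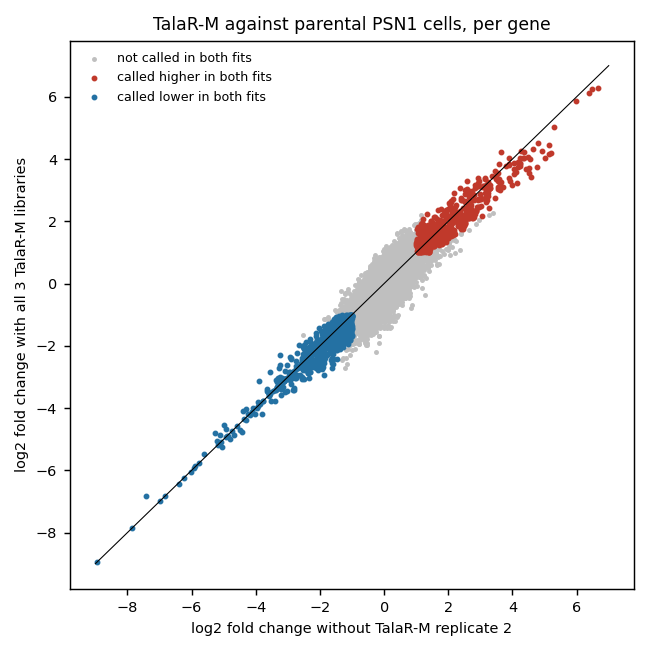
Log2 fold change of each gene tested between TalaR-M and parental cells, without TalaR-M replicate 2 (horizontal axis) and with all 3 TalaR-M libraries (vertical axis), with the line of equal values. The 578 genes called higher (red) and 763 called lower (blue) in both fits extend along the line in both directions, to 6.66 for SCG2 and -8.96 for PCK1.

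In bulk RNA a lower level can come from fewer expressing cells or from less RNA per cell, which cannot be told apart here. The genes that rose furthest were of many kinds. SCG2, a granin of secretory vesicles that is cut into the peptide secretoneurin, stood at 0.83, 0.73 and 1.03 log2 CPM in the parental libraries and at 7.64, 6.40 and 7.41 in TalaR-M replicates 1 to 3. This was a log2 fold change of 6.29 (standard error, SE, 0.30, adjusted p = 2.97e-06), or 78.1-fold, and 6.66 without replicate 2 (101-fold). MATN2, the matrix protein matrilin 2, moved from 0.45, 0.20 and 0.08 to 6.76, 6.05 and 6.68, a log2 difference of 6.25 (SE 0.22, adjusted p = 5.61e-07). For both genes the lowest TalaR-M library was replicate 2, and it still lay far above every parental library. DIO2, the deiodinase that activates thyroid hormone, was at 0 in the 3 parental libraries and at 6.44, 5.61 and 6.35 in TalaR-M cells, at least 70.2-fold higher. PTGIS, which makes prostacyclin, went from 1.03, 0.73 and 1.08 to 7.02, 6.57 and 6.85 (58.2-fold). BMP4, a ligand of the BMP pathway, was present before and rose from 2.65, 2.43 and 2.41 to 7.37, 6.46 and 7.21, a log2 difference of 4.52 (SE 0.24, adjusted p = 4.72e-06). CDKN2C, which encodes the CDK4 and CDK6 inhibitor p18, stood at 0.13, 0.79 and 0.60 in parental cells and at 4.89, 4.73 and 4.64 in TalaR-M cells (19.0-fold), with replicate 2 between the other libraries. ANXA3 (annexin A3) was at least 33.0-fold higher.

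KAL1, which encodes the matrix protein anosmin, and SMPD3, a neutral sphingomyelinase, had log2 fold changes of 4.46 and 4.32. The guidance ligand SEMA3E, the membrane protein ATRNL1, the nuclear envelope protein SYNE2, the basement membrane protein FRAS1, the Groucho corepressor TLE4 and the phosphodiesterase PDE1A completed the 15 most increased genes, at 4.04 to 4.25. Replicate 2 lowered the estimates of the long genes among these. SYNE2 stood at 5.09 and 5.33 in TalaR-M replicates 1 and 3 and at 2.11 in replicate 2, against 0 in each parental library, so that it was at least 18.1-fold higher with all libraries and at least 37.0-fold without replicate 2. FRAS1 followed the same course, at least 17.9-fold with replicate 2 and 35.3-fold without it, as did KAL1 (at least 21.9-fold and 35.1-fold). SEMA3E was at least 19.1-fold higher with all libraries and at least 30.5-fold without replicate 2.

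Several of the genes that fell furthest stood at 0 in every TalaR-M library. PCK1, the enzyme that commits carbon to gluconeogenesis, was at 8.95, 8.94 and 8.99 log2 CPM in parental cells and at 0 in the 3 TalaR-M libraries, at least 498-fold lower (adjusted p = 8.07e-09), and at 3.49, 3.54 and 3.52 in TalaR-DF cells. COL1A2, a chain of type I collagen, went from 7.86, 7.85 and 7.88 to 0 in every TalaR-M library (at least 233-fold). GPC6, a glypican that carries heparan sulfate at the cell surface, went from 7.0, 7.0 and 6.96 to 0 (at least 127-fold). In these 3 genes the parental libraries lay close together while no TalaR-M library stood above the floor. BIRC7, the apoptosis inhibitor livin, was at 7.33, 7.45 and 7.46 in parental cells and at 0, 1.70 and 0 in TalaR-M cells. This was at least 115-fold lower with all libraries and at least 170-fold lower without replicate 2. MUC5B, a gel-forming mucin, was at least 115-fold lower and at 0 in all TalaR-M libraries. KYNU, the kynureninase of tryptophan breakdown, had 6.51, 6.51 and 6.47 against 0.21, 0 and 0 (at least 86.0-fold). IL33, an alarmin cytokine, had 6.26, 6.29 and 6.17 against 0 in the TalaR-M and the TalaR-DF libraries (at least 75.6-fold).

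The rest of the 15 most decreased genes were HS6ST3, a heparan sulfate sulfotransferase, GABRA2, a subunit of the GABA receptor, RGS1, a brake on G protein signalling, the neutrophil antigen gene CD177, the synaptic gene SYN1, NKAIN4, ARHGAP36 and the neuropeptide gene NTS. Their log2 fold changes ran from -6.07 to -5.07. NTS, neurotensin, kept a measurable level, 3.08, 3.52 and 3.14 in TalaR-M cells against 8.29, 8.32 and 8.34 in parental cells (33.6-fold lower). BIRC7 and NKAIN4 lie next to each other on chromosome 20. The plot of the genes furthest apart shows all 30 together with the drug-free cells. GABRA2 was at 4.36, 4.40 and 4.41 in TalaR-DF cells, and ARHGAP36 at 0 there as in TalaR-M cells.

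**Figure D3:**
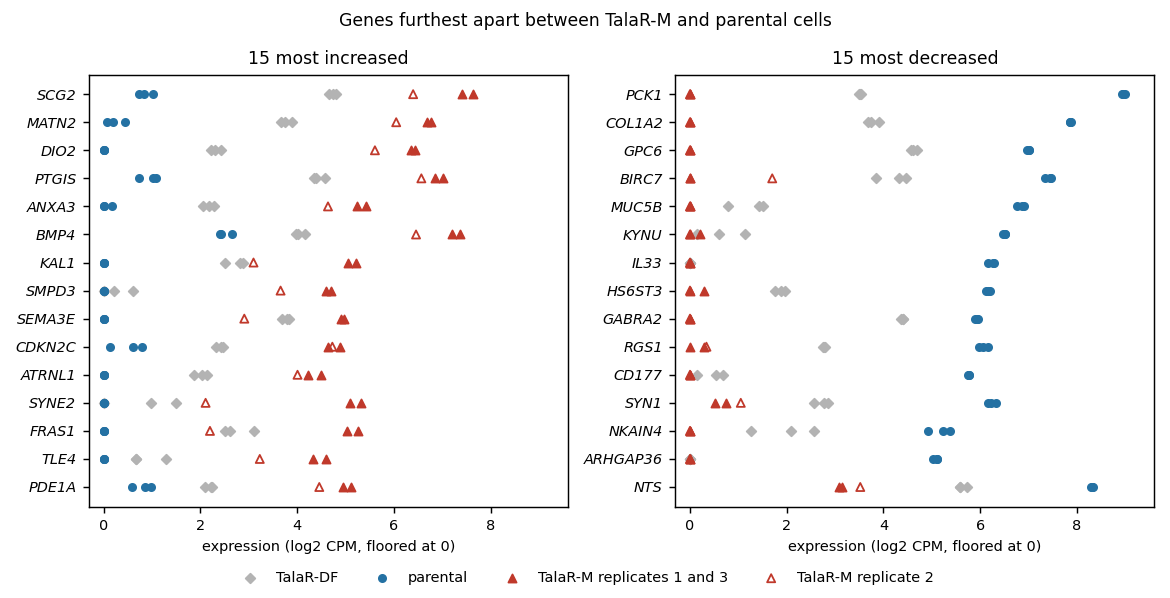
Expression (log2 CPM, floored at 0, horizontal axis) of the 15 most increased and 15 most decreased genes, one point per library: parental (blue circles), TalaR-M replicates 1 and 3 (filled red triangles), TalaR-M replicate 2 (open triangles) and TalaR-DF (grey diamonds). No parental point overlaps a TalaR-M point, from PCK1 (8.94 to 8.99 against 0) to PDE1A (0.59 to 0.98 against 4.46 to 5.11).

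Some called genes were at 0 in one group, which means at most 1 CPM and not absence, and such genes had to differ to be tested, so that their number supports nothing. Of the 763 genes that fell, 168 were at 0 in all 3 TalaR-M libraries, and in TalaR-DF cells 120 of these were still at 0 in every library and 27 were above 0 in every library. Of the 578 genes that rose, 123 were at 0 in all parental libraries, of which 49 were at 0 and 54 above 0 in every TalaR-DF library. In mammalian genomes promoters rich in CG dinucleotides (CpG islands) are typical of broadly expressed genes, and promoters poor in them of tissue-restricted genes. RefSeq promoters (GRCh38.p14, from 250 bases before to 50 bases after the start) were matched by symbol for 10019 of the genes tested. The observed over expected CpG ratio in this window had a median of 0.84 over these genes and exceeded 0.6 in 83.3%. The 123 matched genes that fell to 0 had a median of 0.53, with 42.3% above 0.6, and the 441 matched genes that fell to a level above 0 had 0.75 and 66.9%. Genes that rose from 0 had 0.77 and 65.6% (90 matched), and those that rose from a level above 0 had 0.78 and 72.1% (344 matched). No test was made, and expression level was not matched between these groups.

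The first 2 genes of each ranking that were at 0 in one group and had a promoter entry are shown, as examples of promoters whose gene was at 0 in one group. The 250 bases before the RefSeq start are printed 5′ to 3′ on the strand of the gene, with CG dinucleotides in capitals. Of the genes that fell to 0, GPC6 (chr13:93226557-93226806, plus strand) held 6 CG and IL33 (chr9:6214899-6215148, plus strand) held 0. Of those that rose from 0, DIO2 (chr14:80211505-80211754, minus strand) held 1 and KAL1 (chrX:8732138-8732387, minus strand) held 26.
GPC6: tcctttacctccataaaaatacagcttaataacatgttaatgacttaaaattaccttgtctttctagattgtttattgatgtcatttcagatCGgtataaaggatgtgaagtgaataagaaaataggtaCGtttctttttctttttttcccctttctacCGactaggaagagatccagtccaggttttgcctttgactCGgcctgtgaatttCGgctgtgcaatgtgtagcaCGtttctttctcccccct
IL33: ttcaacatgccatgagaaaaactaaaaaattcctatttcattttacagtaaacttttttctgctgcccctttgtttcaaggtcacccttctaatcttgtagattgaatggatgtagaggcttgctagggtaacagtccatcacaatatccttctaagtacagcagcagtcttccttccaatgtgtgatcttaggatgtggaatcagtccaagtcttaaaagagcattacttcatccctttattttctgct
DIO2: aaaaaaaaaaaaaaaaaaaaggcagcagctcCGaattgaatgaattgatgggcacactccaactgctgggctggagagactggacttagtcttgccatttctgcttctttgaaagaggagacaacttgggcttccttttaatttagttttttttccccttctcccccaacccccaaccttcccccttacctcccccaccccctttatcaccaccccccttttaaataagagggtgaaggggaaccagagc
KAL1: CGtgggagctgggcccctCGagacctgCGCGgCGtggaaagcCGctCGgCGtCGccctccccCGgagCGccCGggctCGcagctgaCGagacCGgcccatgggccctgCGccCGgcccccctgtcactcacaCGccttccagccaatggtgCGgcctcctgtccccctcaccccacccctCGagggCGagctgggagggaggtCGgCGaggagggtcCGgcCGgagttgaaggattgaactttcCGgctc

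Gene classes were then counted. A total of 48 classes, by pathway or gene family, were read against the shares over all genes tested, 4.67% called higher and 6.17% called lower. The plot of classes orders them by the direction of their calls. Shares close to these are no result about a class. In some classes replicate 2 held back calls: without it 11 Wnt pathway, 8 axon guidance, 7 cytokine and 6 tight junction and desmosome genes were called higher, against 7, 5, 4 and 3 in both fits.

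**Figure D4:**
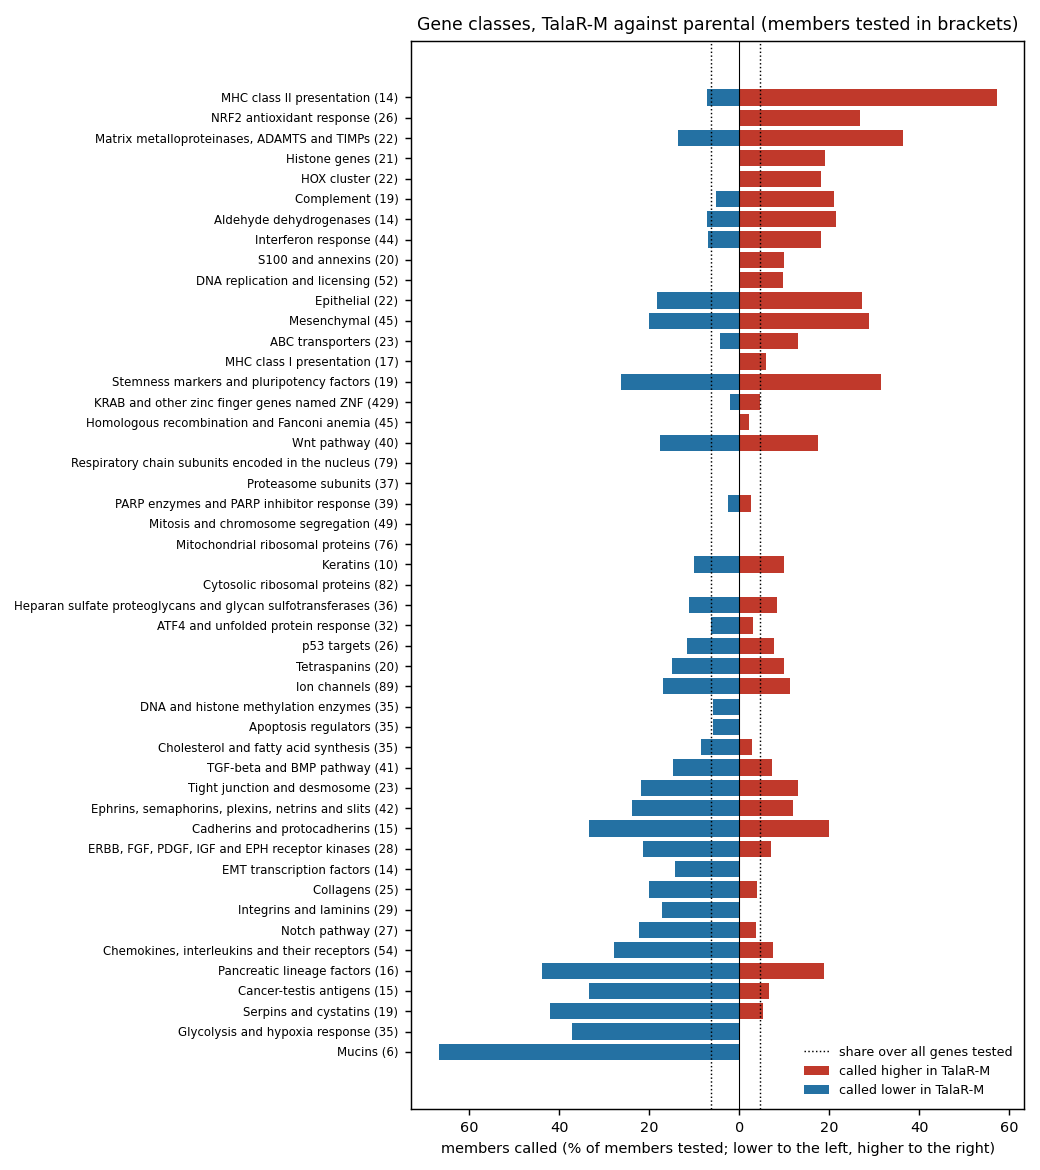
Share of the tested members of each class (number in brackets) called higher (red, right) or lower (blue, left) in TalaR-M cells in both fits, in %. Dotted lines mark the shares over all genes tested, 4.67% higher and 6.17% lower. MHC class II presentation leads on the higher side (57.1%) and mucins on the lower side (66.7%). Members at 0 in every library of either group had to differ to be tested, among them MUC5B and MUC13.

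Targets of the response to low oxygen and glucose transporters fell. In the class of glycolysis and hypoxia response, which holds glucose transporters, glycolytic enzymes and targets of hypoxia-inducible factor, 13 of 35 tested members were called lower (37.1%) and 0 higher, with a median log2 fold change of -0.98, or -0.93 without replicate 2. ALDOC, an aldolase, stood at 6.08, 5.99 and 5.93 log2 CPM in parental cells and at 2.35, 2.50 and 2.51 in TalaR-M cells, an 11.7-fold difference (SE 0.13, adjusted p = 8.5e-07). NDRG1, a stress gene induced by hypoxia, went from 9.11, 9.07 and 9.08 to 6.2, 5.90 and 6.0 (8.31-fold lower). Replicate 2 lay with the other TalaR-M libraries for both genes. SLC2A3, the glucose transporter GLUT3, fell by 2.50 on the log2 scale, and EGLN3, a prolyl hydroxylase that marks hypoxia-inducible factor for degradation, by 2.01. The 9 others were PFKFB4, VEGFA, CA9, CA12, SLC2A1, LOX, ENO2, ADM and PDK1. CA9, the carbonic anhydrase often used as a hypoxia marker, showed what replicate 2 did to a short transcript: it was at 8.75, 8.64 and 8.69 in parental cells and at 6.71 and 6.61 in replicates 1 and 3, but at 8.48 in replicate 2, so that its log2 fold change was -1.43 with all libraries and -2.03 without that one. VEGFA, the angiogenic growth factor, had 7.17, 7.22 and 7.23 against 5.74, 4.31 and 5.69. Of the enzymes of the glycolytic chain itself ALDOC and ENO2 were called. HK2, a hexokinase, had -1.41 with all libraries and -1.0 without replicate 2, and PGK1 had -1.20 and -0.89. PFKM had -1.32 and -0.93, PFKP -0.98 and -0.71, and PKM -0.63 and -0.75. TPI1 and PGAM1 had 0.47 and 0.06 with all libraries (adjusted p = 0.22 and 0.854). GAPDH, named like these and LDHA after the values were seen, had a log2 fold change of -0.35 (adjusted p = 0.158) and LDHA of -0.46 (adjusted p = 0.0973). Without replicate 2 GAPDH had -0.25 and LDHA -0.35 (adjusted p = 0.0674 and 0.0277 in limma). With all libraries 32 of the 35 class members had a negative log2 fold change and 3 a positive one. HIF1A, named after its values were seen, had -1.07 (adjusted p = 0.287) with all libraries and -0.09 without replicate 2.

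Genes of the NRF2 antioxidant response rose and none fell. Of 26 tested members 7 were called higher (26.9%), namely AKR1B10, OSGIN1, SLC7A11, ABCC3, AKR1C1, NQO1 and AKR1C3. AKR1B10, an aldo-keto reductase, was at 0 in the parental libraries and at 3.29, 3.19 and 3.02 in TalaR-M cells, at least 8.98-fold higher (adjusted p = 1.02e-06), with 2.01 to 2.16 in TalaR-DF cells. SLC7A11, the cystine importer that feeds glutathione synthesis, rose from 3.42, 3.62 and 3.64 to 5.72, 4.11 and 5.78. Its log2 fold change was 1.65 with all libraries (adjusted p = 0.0209) and 2.19 without replicate 2, the lowest of the 3. NQO1, a quinone reductase, stood at 7.55, 7.50 and 7.52 in parental cells and at 8.81, 9.63 and 8.59 in TalaR-M cells, a log2 fold change of 1.49 (adjusted p = 0.0034). NQO1 and OSGIN1 lie on chromosome 16, in a stretch whose blocks of 25 neighbouring genes had median log2 fold changes of 0.37 to 0.48 without replicate 2, and the part of this in their increase was not tested. ABCC3, an efflux pump of organic anions, rose by 1.56 (adjusted p = 0.00052). AKR1C1 and AKR1C3 belong to a cluster of close copies among which the counting could have split reads, so their values are uncertain. NFE2L2, which encodes NRF2 itself, and HMOX1, a heme oxygenase, were not called (-0.74 and -0.49, adjusted p = 0.313 and 0.126). KEAP1, the inhibitor of NRF2, had 0.66 (adjusted p = 0.0452), short of 2-fold. All 3 were named after their values were seen.

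**Figure D5:**
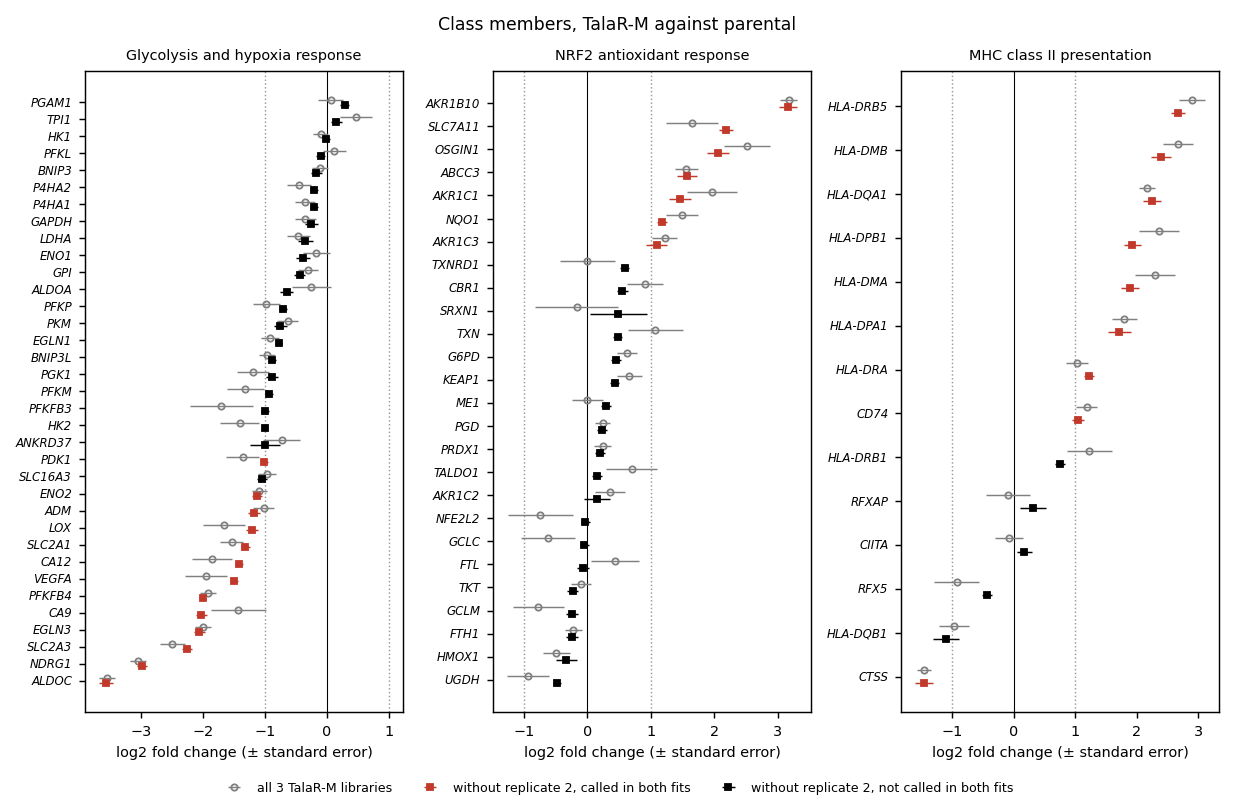
Log2 fold change between TalaR-M and parental cells (± SE, the standard error) of every tested member of 3 classes, with all 3 TalaR-M libraries (open circles) and without TalaR-M replicate 2 (squares, red where the gene was called in both fits). Dotted lines mark a 2-fold change. Called lower in both fits were 13 glycolysis and hypoxia genes, from ALDOC at -3.55 to PDK1, and CTSS of MHC class II. Called higher were 7 NRF2 genes led by AKR1B10 (3.17) and 8 MHC class II genes led by HLA-DRB5 (2.90). Some others pass a dotted line without a call in both fits, such as PFKM with all 3 libraries (-1.32).

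MHC class II genes had the highest share of members called higher. MHC class II molecules display peptides to CD4+ T cells and are made mainly by antigen-presenting cells, although tumor cells can express them. Of 14 tested members 8 rose (57.1%) and 1 fell (7.14%), with a median log2 fold change of 1.21, or 1.13 without replicate 2. HLA-DRB5 went from 3.57, 3.68 and 3.68 to 6.44, 7.01 and 6.19, a log2 difference of 2.90 (SE 0.21, adjusted p = 2.82e-05). HLA-DMB, part of the exchanger that loads peptides, went from 0.45, 0.90 and 0.67 to 3.05, 3.89 and 3.11. CD74, the invariant chain that guides class II molecules through the cell, rose from 8.24, 8.06 and 7.99 to 9.24, 9.58 and 9.03. In all of these no TalaR-M library overlapped a parental one. HLA-DQA1 (2.17), HLA-DPB1 (2.36), HLA-DMA (2.30), HLA-DPA1 (1.80) and HLA-DRA (1.03) rose as well. HLA-DQB1, the partner chain of HLA-DQA1, went the other way, from 4.01, 4.30 and 4.20 to 3.18, 3.47 and 2.96, a log2 difference of -0.97 (SE 0.24, adjusted p = 0.0201), and was called lower without replicate 2 (-1.10). With a pseudocount of 8 CPM 4 members were called higher in place of 8. In TalaR-DF cells HLA-DRB5 was at 2.05, 2.08 and 2.12, below the parental libraries. CTSS, a protease that trims the invariant chain, fell from 1.45, 1.33 and 1.60 to 0. CIITA, the coactivator that switches the class on, was not called (-0.08, adjusted p = 0.816) and was named after its values were seen. HLA genes are close copies that vary between people, and the counting could have split their reads, so single HLA values are uncertain. Of 15 leukocyte markers 12 were at 0 in all 6 libraries, among them CD3D, CD68 and LYZ, and the monocyte genes CD14 and CSF1R fell. The summed level of the list was 14.8 to 18.0 CPM in parental and 4.14 to 7.11 CPM in TalaR-M cells.

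Interferon response genes were mixed. Of 44 tested, 8 rose (18.2%) and 3 fell (6.82%). HERC5, a ligase that attaches ISG15, went from 0.99, 0.79 and 0.98 to 3.17, 3.29 and 2.86 (4.56-fold higher), and MX1, an antiviral GTPase, from 1.88, 1.82 and 2.06 to 3.49, 3.85 and 3.55 (3.28-fold). HERC6 and IFI6 rose by 2.01 and 2.36 on the log2 scale. IFI16, a sensor of DNA in the nucleus, fell from 8.80, 8.75 and 8.70 to 7.20, 5.91 and 7.03, and GBP2 and OASL fell by 1.32 and 1.06. None of the 8 increases passed in limma once a pseudocount of 8 CPM was added, which weighs down genes of low level. HLA-B was the only one of 17 tested MHC class I presentation genes called, with 6.64, 6.66 and 6.65 in parental cells and 7.90, 9.22 and 7.62 in TalaR-M cells. In replicate 2 it stood highest.

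Cytokine genes more often fell than rose, and early complement components rose. Among chemokines, interleukins and their receptors 15 of 54 tested genes fell (27.8%) and 4 rose (7.41%). Members at 0 in every library of either group, such as IL13RA2, IL20RA and CSF2, had to differ to be tested. With a minimum of 5 CPM 9 were called lower and 0 higher, and with a pseudocount of 8 CPM 7 and 0. IL13RA2, a decoy receptor for IL13, went from 4.35, 4.11 and 3.91 to 0 in every TalaR-M library (at least 17.4-fold lower), and IL20RA from 3.21, 3.25 and 3.30 to 0. CXCR4, the receptor of CXCL12, fell from 3.13, 3.14 and 3.38 to 0.50, 0 and 0, while CXCL12 itself rose by 1.34. CXCL6, a chemokine of neutrophils, fell by 3.38, and CSF2, the growth factor GM-CSF, was at 0 in parental cells and at 1.65, 2.96 and 2.12 in TalaR-M cells. In the complement class 4 of 19 rose (21.1%). C1S and C1R, the proteases that start the classical pathway, rose by 2.34 and 1.43 on the log2 scale. SERPING1, the inhibitor of those proteases, went from 1.37, 1.11 and 1.18 to 0.

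Few genes near the action of the drug passed the test. Among 39 tested genes of PARP enzymes and of the response to PARP inhibitors, 1 rose and 1 fell (2.56% each), and 3 were called higher without replicate 2. At an unadjusted p under 0.05 in limma with all libraries 7 were higher and 5 lower. PARP1 was at 9.08, 9.02 and 9.05 in parental cells and at 8.87, 8.14 and 8.70 in TalaR-M cells, a log2 difference of -0.48 (SE 0.19, adjusted p = 0.104) and of -0.26 without replicate 2 (SE 0.07, adjusted p = 0.00567), short of 2-fold in both. PARP2 had 0.77 (adjusted p = 0.00277), also short of 2-fold. PARG, which removes poly(ADP-ribose) and whose loss is a known route to resistance, had -0.24 (SE 0.34, adjusted p = 0.622) with all libraries and 0.22 without replicate 2 (adjusted p = 0.0332). ABCB1, the efflux pump of several PARP inhibitors, was at 0 in all 9 libraries, so a change was not detectable at this depth. SLFN11, a replication stress factor linked to PARP inhibitor sensitivity, was at 0.30, 0.79 and 0.52 in parental cells and at 2.18, 0.18 and 2.00 in TalaR-M cells. Replicate 2 decided its call, with a log2 fold change of 0.92 (adjusted p = 0.19) with it and 1.55 (adjusted p = 1.05e-05) without it. CHD1L, a chromatin remodeler that is recruited by poly(ADP-ribose), had -0.40 (adjusted p = 0.107). The 2 called genes were MACROD2, which removes single ADP-ribose units, and HELB, a helicase that limits resection of DNA ends. MACROD2 rose from 0.04, 0 and 0.28 to 1.24, 0.62 and 1.71, and HELB fell from 4.54, 4.52 and 4.57 to 2.87, 1.30 and 2.55. HELB lies on chromosome 12, in a block of 25 neighbouring genes with a median log2 fold change of -0.61 without replicate 2. The part of this in its decrease was not tested.

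Of 45 tested genes of homologous recombination and the Fanconi anemia pathway, 1 rose (2.22%) and 0 fell, with a median log2 fold change of 0.09. Without replicate 2 the median was 0.36 and 4 were called higher. At an unadjusted p under 0.05 in limma with all libraries 10 were higher and 1 lower. The gene called in both fits was XRCC3, a recombination factor, at 3.90, 3.84 and 3.86 in parental cells and 4.82, 6.0 and 4.99 in TalaR-M cells. XRCC3 lies on chromosome 14, in a block of 25 neighbouring genes with a median log2 fold change of 0.41 without replicate 2. The part of this in its increase was not tested. BRCA2, which loads the recombinase onto DNA, was at 3.85, 3.84 and 3.76 against 4.83, 3.38 and 4.88, so that it passed without replicate 2 (log2 fold change 1.04, adjusted p = 2.93e-05) and not with it (0.55, adjusted p = 0.312). BRCA1 had 0.10 (adjusted p = 0.84) and 0.54 without replicate 2. Replicate 2 was lowest for the long BRCA1 and BRCA2 transcripts. TP53BP1, which steers breaks away from recombination, shows a wide gap of this kind: it was at 7.0, 6.96 and 7.06 in parental cells, at 6.41 in TalaR-M replicates 1 and 3, and at 2.69 in replicate 2. Its log2 fold change was -1.84 (SE 0.87, adjusted p = 0.162) with that library and -0.60 (SE 0.06, adjusted p = 3.2e-06) without it.

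In DNA replication and licensing 5 of 52 tested genes rose (9.62%) and 0 fell, with a median log2 fold change of 0.36, or 0.43 without replicate 2. GINS2, a subunit of the replicative helicase, went from 3.57, 3.57 and 3.44 to 5.44, 6.49 and 5.20 (4.55-fold higher). POLA2, a subunit of the primase complex, rose by 1.63, TYMS, which makes thymidylate, by 1.37, ORC6, of the origin recognition complex, by 1.15 and GINS3 by 1.05. GINS2 and GINS3 lie in the same stretch of chromosome 16 as NQO1. ORC6 was steady across the TalaR-M libraries, at 5.80, 5.81 and 5.85 against 4.71, 4.70 and 4.6. Among 49 tested genes of mitosis and chromosome segregation 0 were called in both fits, 3 higher with all libraries and 6 higher without replicate 2 (0 lower in either), and 16 were higher at an unadjusted p under 0.05 in limma with all libraries. The median of this class was 0.28, and 0.64 without replicate 2, whose median difference from the mean of replicates 1 and 3 was -1.30. The proliferation gene MKI67, named after its values were seen, was at 8.02, 7.96 and 7.87 in parental cells and at 9.14, 7.96 and 9.16 in TalaR-M cells. All 4 histone genes that were called out of 21 tested rose (19.0%), among them H2AFX, from 5.79, 5.67 and 5.81 to 6.89, 7.74 and 6.64. Poly(A) libraries capture most replication-dependent histone transcripts poorly, and such genes are near copies.

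Among 26 tested p53 targets 2 rose (7.69%) and 3 fell (11.5%). PLK2, a stress-induced kinase, rose from 5.37, 5.26 and 5.37 to 7.87, 6.75 and 7.72, and TP53I3 by 1.54. PHLDA3, an AKT repressor, fell by 2.05, GDF15, a stress cytokine, by 1.60 and SESN1 by 1.43. For GDF15 replicate 2 stood between the groups, at 2.96 against 1.32 and 1.36 in replicates 1 and 3 and 3.39 to 3.54 in parental cells. Of 35 apoptosis regulators 0 rose and 2 fell (5.71%), BIRC7 and MCL1, an antiapoptotic BCL2 relative that went from 9.5, 9.51 and 9.47 to 8.44, 7.54 and 8.38. In the class of ATF4 and the unfolded protein response 1 of 32 rose, ATF3, and 2 fell, DDIT4 and the serine enzyme gene SHMT2.

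Classes of short transcripts moved with replicate 2. The 82 tested cytosolic ribosomal protein genes (median transcript length 827 bases) had a median log2 fold change of 0.54 with all libraries and of -0.11 without replicate 2, which lay a median of 1.97 above replicates 1 and 3. The 79 tested nuclear genes of the respiratory chain had 0.64 and 0.07, and the 76 of mitochondrial ribosomal proteins 0.38 and 0.02. In these classes 0 genes were called in both fits by limma, while 5 cytosolic ribosomal, 11 respiratory chain and 13 mitochondrial ribosomal genes were higher, and 0, 3 and 4 lower, at an unadjusted p under 0.05 with all libraries. Of the ribosomal protein genes 1 was called higher with all libraries by limma and 0 without replicate 2.

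Matrix and adhesion genes changed in both directions, with type I collagen split between its chains. COL1A1 rose from 6.51, 6.45 and 6.55 to 8.61, 8.13 and 8.67 (3.91-fold), while COL1A2, whose product joins that of COL1A1 in the same triple helix, went to 0. In the collagen class 1 of 25 rose (4.0%) and 5 fell (20%), and without replicate 2 alone 4 were called higher and 5 lower. The others that fell were COL5A3 (fell by 3.77), COL9A3 (by 2.10), COL6A2 (by 1.38) and COL16A1. Of 22 matrix metalloproteinases, ADAMTS proteases and TIMP inhibitors 8 rose (36.4%) and 3 fell (13.6%). ADAMTS12 went from 4.11, 4.23 and 4.16 to 8.77, 7.09 and 8.64 (16-fold, and 23.3-fold without replicate 2), and MMP24 from 0 in parental cells to 5.09, 2.07 and 4.94. MMP1, the interstitial collagenase, fell by 2.39 and TIMP1, an inhibitor of these proteases, from 11.36, 11.25 and 11.26 to 8.78, 10.67 and 8.52. TIMP1 has a short transcript (769 bases) and stood highest in replicate 2, and its log2 fold change was -1.97 with all libraries and -2.64 without it. Integrins and laminins had 5 of 29 lower (17.2%) and 0 higher. ITGA5, the alpha subunit of the fibronectin receptor, went from 8.69, 8.60 and 8.68 to 6.42, 6.13 and 6.24 (5.26-fold lower). ITGA2, of the collagen receptor, went from 9.68, 9.62 and 9.65 to 8.23, 5.35 and 8.14. ITGA5 lies on chromosome 12, in a block of 25 neighbouring genes with a median log2 fold change of -0.64 without replicate 2. The part of this in its decrease was not tested.

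Epithelial and mesenchymal lists each held genes that rose and genes that fell. Of 22 tested epithelial genes 6 rose (27.3%) and 4 fell (18.2%), and of 45 tested mesenchymal genes 13 rose (28.9%) and 9 fell (20%). The median log2 fold changes were 0.42 and 0.23, and 0.02 and 0.33 without replicate 2. Members at 0 in every library of either group, such as LAD1 and WNT5A, had to differ to be tested. With a minimum of 5 CPM 4 epithelial genes were called higher and 1 lower, and with a pseudocount of 8 CPM 3 and 1. For mesenchymal genes these counts were 11 and 8, and 10 and 8. On the epithelial side LSR, a protein of tricellular junctions, went from 2.75, 2.59 and 2.98 to 5.0, 5.67 and 4.85 and EHF, an epithelial transcription factor, rose by 2.04, while ESRP2, an epithelial splicing factor, fell by 1.91 and LAD1, of the basement membrane anchor, from 2.74, 2.18 and 2.43 to 0. On the mesenchymal side THBS1, a thrombospondin of the matrix, went from 5.81, 5.85 and 5.89 to 10.62, 7.57 and 10.58 (13.3-fold, and 26.9-fold without replicate 2). WNT5A, a noncanonical Wnt ligand, was at 0 in parental cells and at 4.14, 2.53 and 4.07 in TalaR-M cells, and GAS6, the ligand of AXL, rose by 3.18. LUM, lumican, fell by 3.5 and PDGFRB, a growth factor receptor of stromal cells, by 2.93. Of 14 tested transcription factors linked to epithelial-mesenchymal transition 0 rose and 2 fell, PRRX1 and FOXC1, whereas 5 were called lower with all libraries.

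Junction genes moved in opposite directions within families. Among claudins, which seal tight junctions, CLDN1 rose from 2.33, 2.71 and 2.51 to 5.33, 4.28 and 5.11 and CLDN2 by 1.64, whereas CLDN10, CLDN7 and CLDN3 fell by 1.66, 1.40 and 1.35. The desmosomal genes PKP2 and JUP went opposite ways, PKP2 higher by 2.74 and JUP, plakoglobin, from 8.02, 7.89 and 7.91 to 5.79, 5.79 and 5.62. In the tight junction and desmosome class 3 of 23 rose (13%) and 5 fell (21.7%). Of 15 tested cadherins and protocadherins 3 rose (20%) and 5 fell (33.3%). Members that went to 0 had to differ to be tested. With a minimum of 5 CPM 0 were called higher and 2 lower, and with a pseudocount of 8 CPM 1 and 1. FAT4, a giant cadherin, was at 0, 0 and 0.36 in parental cells and at 4.57, 1.22 and 4.81 in TalaR-M cells. It was at least 10.7-fold higher, and at least 23.8-fold without replicate 2, whereas CDH12, CDH18 and CDH13 went to 0. Among 10 keratins KRT19, typical of ductal cells, rose from 5.77, 5.80 and 5.83 to 7.92, 9.53 and 7.81 and KRT79 fell by 3.47.

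The pancreatic lineage list and the mucins held more genes that fell than rose. Of 16 tested members of the lineage list 7 fell (43.8%) and 3 rose (18.8%). Those that fell included TFF1, TFF2 and TFF3, trefoil peptide genes that lie side by side on chromosome 21 and are not lineage factors. Of the rest FOXA2, HNF4A, NR5A2 and BHLHA15 fell and INSM1, FOXA1 and FOXA3 rose. FOXA2, an endoderm pioneer factor, went from 4.61, 4.63 and 4.67 to 1.16, 1.45 and 0.89 (11.1-fold lower), and HNF4A, a nuclear receptor of endodermal epithelium, from 2.99, 2.86 and 3.39 to 0. FOXA1, a relative of FOXA2, moved the other way, from 0.59, 0.85 and 0.92 to 3.10, 1.70 and 3.12. TFF3, a trefoil peptide of mucus, fell by 3.12 with all libraries and by 3.91 without replicate 2. Mucins had the highest share of members called lower, 4 of 6 tested (66.7%) with 0 higher. MUC5B and MUC13 were at 0 in every TalaR-M library and had to differ to be tested. With a minimum of 5 CPM 3 mucins were called lower, and with a pseudocount of 8 CPM 3 as well. MUC6 went from 5.88, 5.92 and 5.83 to 0, 2.02 and 1.23, MUC5AC from 7.65, 7.62 and 7.52 to 5.98, 6.21 and 6.78, and MUC13 from 1.96, 1.69 and 1.56 to 0. Mucin transcripts are long and hold repeats in which reads may be lost or split. Serpins and cystatins, inhibitors of proteases, had 8 of 19 lower (42.1%) and 1 higher (5.26%). SERPINA3, antichymotrypsin, went from 6.90, 6.92 and 6.85 to 2.18, 2.72 and 1.74 (25.6-fold lower) and CST1, a cystatin with close copies, from 5.77, 5.46 and 5.47 to 0.43, 1.22 and 0.44.

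In the TGF-beta and BMP pathway 3 of 41 rose (7.32%) and 6 fell (14.6%). The increases were the ligand BMP4 and a pair of its antagonists, NOG, from 0 in parental cells to 2.93, 3.87 and 2.92, and BAMBI, from 2.71, 2.83 and 2.70 to 4.86, 5.03 and 4.68. LTBP2, a matrix protein of the latent TGF-beta binding protein family, fell by 2.84 and TGFBR3, a coreceptor, by 1.96. Notch pathway genes fell in 6 of 27 cases (22.2%) and rose in 1 (3.7%). The receptor gene NOTCH3 went from 6.49, 6.47 and 6.60 to 4.49, 3.27 and 4.75, the ligand gene JAG1 from 8.20, 8.22 and 8.24 to 6.39, 4.74 and 6.39, and LFNG, which glycosylates Notch, fell by 1.87. For NOTCH3 and JAG1 replicate 2 was lowest, and without it they fell by 1.90 and 1.84. Of 40 Wnt pathway genes 7 rose and 7 fell (17.5% each). DKK1, a secreted Wnt inhibitor, went from 2.63, 2.74 and 2.77 to 7.15, 6.15 and 6.93 (16.3-fold), and RNF43, a ligase that removes Wnt receptors, rose by 2.86. The receptor gene FZD1 fell by 2.62 and the ligand gene WNT4 by 2.06.

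Among receptor kinases of the ERBB, FGF, PDGF, IGF and EPH families 2 of 28 rose (7.14%) and 6 fell (21.4%). EPHA3 went from 4.93, 4.91 and 4.94 to 0, 0 and 0.10 (at least 29.7-fold lower), while AXL, the receptor of GAS6, rose from 7.03, 7.03 and 7.03 to 8.39, 7.85 and 8.25. Ephrins, semaphorins, plexins, netrins and slits, which guide axons and growing vessels, had 10 of 42 lower (23.8%) and 5 higher (11.9%), among them SLIT2, higher by 1.76, and SEMA7A, which fell by 1.76. Of 89 tested ion channels 15 fell (16.9%) and 10 rose (11.2%). Members at 0 in every library of either group, such as GABRA2, had to differ to be tested. With a minimum of 5 CPM 8 channels were called lower and 3 higher, and with a pseudocount of 8 CPM 5 and 2. CACNA1H, a T-type calcium channel, went from 4.24, 4.38 and 4.29 to 0, 0.49 and 0.44.

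In the stemness list, part of which the study chose on the same cells and which is therefore not independent evidence of its direction, 6 of 19 rose (31.6%) and 5 fell (26.3%). TSPAN8, a tetraspanin of the cell surface, went from 0.45, 1.20 and 0.52 to 4.70, 5.07 and 4.51 (16.4-fold), and PROM1, which encodes CD133, from 0 to 3.65, 3.52 and 3.44. For both genes no TalaR-M library came near a parental one. CD24, a surface marker, was at 0 in parental and TalaR-DF cells and at 2.60, 2.88 and 2.42 in TalaR-M cells. NES, the intermediate filament nestin, fell from 8.46, 8.50 and 8.55 to 5.30, 5.79 and 5.38 (8.09-fold), and LGR4, an R-spondin receptor, by 2.59, or by 1.60 without replicate 2. Of 23 ABC transporters 3 rose (13%), ABCA5, ABCG2 and ABCC3. ABCG2, a drug efflux pump, went from 2.15, 2.39 and 2.47 to 4.39, 3.23 and 4.29, a log2 difference of 1.64 (SE 0.30, adjusted p = 0.00509) and of 2.01 without replicate 2, the lowest of the 3. The cholesterol exporter ABCG1 was the 1 member called lower (4.35%), from 4.47, 4.55 and 4.32 to 2.30, 0.85 and 2.47. Of 14 aldehyde dehydrogenases 3 rose (21.4%), led by ALDH3A1, from 0 in parental cells to 3.08, 3.85 and 3.20, and including ALDH1A3, which rose by 1.25, and 1 fell. Among 20 tetraspanins 2 rose (10%) and 3 fell (15%), among them TSPAN8 and TSPAN5, the latter higher by 2.54, and CD82, which fell by 1.30. Of 20 S100 and annexin genes 2 rose (10%), ANXA3 and ANXA8, which has a near-identical copy. Among 36 heparan sulfate proteoglycans and glycan sulfotransferases 3 rose (8.33%), among them SDC2, a syndecan, and 4 fell (11.1%), led by GPC6 and HS6ST3.

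Of 22 tested HOX genes 4 rose (18.2%) and 0 fell, and all 4 lie in the HOXB cluster on chromosome 17. HOXB9 went from 4.6, 4.61 and 4.68 to 6.09, 5.57 and 5.98, HOXB6 from 2.33, 2.16 and 2.43 to 3.57, 3.47 and 4.00, and HOXB5 and HOXB4 rose by 1.71 and 1.53. Cancer-testis antigen genes fell in 5 of 15 cases (33.3%) and rose in 1. This count is no support for a change of the class, since these 5 entered the test through parental values alone, and with a minimum of 5 CPM 3 and with a pseudocount of 8 CPM 2 were called lower. MAGEA3, MAGEC2, MAGEA6 and MAGEA12, which lie on the X chromosome and of which the MAGEA genes are near copies, were at 1.68 to 3.22 in the parental libraries and at 0 in all TalaR-M and TalaR-DF libraries. SYCP2, a protein of the meiotic synaptonemal complex, rose from 0.83, 1.11 and 0.80 to 4.40, 3.12 and 4.66. Of 35 enzymes that write or erase methyl groups on DNA and histones 0 rose and 2 fell (5.71%), the histone demethylase gene KDM5B, from 8.35, 8.33 and 8.32 to 6.82, 5.11 and 6.78, and TET1, whereas 5 were called lower with all libraries. Of 429 tested zinc finger genes named ZNF 20 rose (4.66%) and 9 fell (2.1%), a share of increases close to that over all genes. Without replicate 2, 42 were called higher and 10 lower. In cholesterol and fatty acid synthesis 1 of 35 rose and 3 fell (8.57%), among them SREBF1, a regulator of lipid synthesis, and STARD4.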

How the data were processed

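Stranded poly(A) libraries of PSN1 cells, 3 per group, were read as pairs of 150 bases. The deposited file holds log2 CPM of protein-coding genes, computed by the authors with a small prior (as the values show) and set to 0 where negative. The submitters' processing notes name the hg38 build. The aligner, the counter and the use of strand in counting are not given in the sources used here, so genes that overlap are uncertain. Columns headed maintain were assigned to TalaR-M, and those headed withdraw to TalaR-DF. Whole reads behind the values under 50 CPM gave the depth, 8387755 to 14973847 reads per library on genes above 1 CPM, with 1 CPM standing for 7.54 to 15.7 reads. Since reads at or under 1 CPM cannot be recovered, no count test was run.

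Tests used limma 3.58.1 (R 4.3.3) in 1 model of the 9 PSN1 libraries with a mean-variance trend, for genes above 0 in at least 3 of the 6 libraries compared. The fit was repeated without TalaR-M replicate 2. With 3 against 3 libraries an exact permutation test of 1 gene cannot go below 0.1 and was not used. The genes named were the 15 most increased and 15 most decreased genes called in both fits without overlap between groups, ranked by the smaller of both fold changes, up to 4 per class and direction, a fixed set around PARP1, and all markers. Any other gene was named after its values were seen. The members and lists were chosen with earlier results of these data known. No set test was run. Positions and lengths came from GENCODE 44 (GRCh38), matched by symbol for 99.2% of the genes tested. Alternatives were a pseudocount of 1 or 8 CPM, no filter or a minimum of 5 CPM, rescaling, no trend, array weights, a fit of 6 libraries, a replicate block, removal of a length and GC trend, other fold thresholds and leaving out each library. Figures were drawn with matplotlib 3.10.9. Some genes that the naming rule selects are not reported here.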

Additional observations from a re-analysis of the deposited data

How the results depend on the processing

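With all 3 TalaR-M libraries 1660 genes were called, and 1341 both with and without TalaR-M replicate 2. Adding a pseudocount of 8 CPM gave 713 and 518, dropping the fold threshold 2957 and 2956, and a 1.5-fold threshold 2649 and 2421. Leaving out 1 library in turn gave 1300 to 2053 genes and 1173 to 1291. The other alternatives stayed within 1.5 times these counts, among them a minimum of 5 CPM (1186 and 928), only the 6 libraries compared (1270 and 1161), array weights, in which replicate 2 had a weight of 0.0131 (1708 and 1678), and a correction for transcript length and GC (1844 and 1485). Of the named genes that were called, 90 lost the call with the pseudocount of 8 CPM, at most 20 under any other alternative, and none changed direction (a minimum of 5 CPM left 179 of them in the test). With 8 CPM added, 0 genes of the interferon, ZNF, cytokine and pancreatic lineage classes were called higher (8, 20, 4 and 3 without it). The replicate numbers did not pair the libraries: the deviations of same-numbered TalaR-M and parental libraries correlated at 0.078, 0.021 and 0.005. A replicate block gave 1548 and 1297 genes. Values under 1 CPM cannot be told from 0, so that changes among the 7278 genes at 0 in all 6 libraries were not detectable.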

Other observations

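Expression differed along some chromosomes. Genes whose mean exceeded 3 log2 CPM were taken in 369 blocks of 25 neighbours, and the median log2 fold change of each block was computed without TalaR-M replicate 2. In 32 blocks it lay below -0.4 and in 14 above 0.4. Chromosome 12 held 14 of the 32 low blocks. Its first 3 blocks had 0.35, 0.23 and 0.44, and of the 15 blocks from 46183063 to 132956306 (GRCh38) 14 were negative, down to -0.68 for the block from CCDC59 to NEDD1, in which all 25 genes were lower. Chromosome 16 held 6 of the 14 high blocks. Its 8 blocks from 50065967 to 90044975 had 0.37 to 0.48, and the 10 blocks before them were negative (-0.33 to -0.03). On chromosome 14 all 13 blocks were positive (0.16 to 0.51), on chromosome 1 33 of 39 were negative, and on chromosome 15 10 of 11. Among the genes named above, NTS and SHMT2 also lie in low blocks of chromosome 12 (-0.68 and -0.49). The part of this in their decrease was not tested, and neither was DNA copy number.

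Called genes also lay side by side. There were 23 runs of at least 3 neighbouring tested genes called in the same direction in both fits, with 80 genes in all, named here after their values were seen. The longest, on chromosome 12, held LRP1, NXPH4, SHMT2, NDUFA4L2, STAC3 and R3HDM2, all lower. Others that fell were SERPINA6, SERPINA1, SERPINA5 and SERPINA3 on chromosome 14, ABCG1, TFF3, TFF2 and TFF1 on chromosome 21, MUC6, MUC5AC and MUC5B on chromosome 11, SGCE, PEG10, PPP1R9A and PON3 on chromosome 7, and MAGEA3, CSAG1, MAGEA12 and MAGEA6 on the X chromosome. Runs that rose included HOXB4, HOXB5 and HOXB6 on chromosome 17 and MAOA, MAOB and NDP on the X chromosome. No test of clustering was made.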
